A study of Bos taurus with 18 samples.

Results

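The basal medium is the salt, sugar, amino acid and vitamin solution on which a culture medium is built. Bovine satellite cells that had differentiated for 72 h in a serum-free differentiation medium built on DMEM (here the DMEM group) were compared with cells in the version built on DMEM/F-12 (SFDM). Both groups had 3 libraries, labelled A, B and C, so 6 of the 18 libraries of the series were compared. The members described are the 14637 of 27607 gene identifiers that passed an expression filter. All cells were satellite cells of the Belgian Blue cattle breed, and both groups came from serum-free growth medium (SFGM), were sampled at 72 h and received no fetal bovine serum (FBS). The other groups, with 3 libraries each, serve as references: growth medium with 20% FBS (GM) and SFGM, both sampled at 0 h, and differentiation medium with 2% FBS (DM) and a serum-free base medium (SFB), both sampled at 72 h. DM cells came from GM, and SFB cells came from SFGM. Before differentiation the cells grew in flasks coated with collagen. The labels do not state the formulas of the media or which basal solution SFB was built on. They call the replicates biological triplicates without saying whether A, B and C were animals or cultures, so p-values measure only the spread between these libraries.

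Satellite cells are the resident progenitors of skeletal muscle. When they differentiate they leave the cell cycle, switch on myogenic transcription factors, fuse into multinucleated myotubes and build the contractile apparatus, which fills the transcriptome with a small number of very abundant muscle transcripts. In culture this step is usually started by serum withdrawal. DMEM/F-12 is a blend of DMEM with Ham's F-12. The F-12 part brings components that standard DMEM lacks, among them further non-essential amino acids such as alanine, asparagine and proline, zinc and copper salts, putrescine, hypoxanthine, thymidine, linoleic acid, biotin and vitamin B12. The blend also differs from DMEM in the amounts of glucose, calcium and other shared components. The identifiers in the counts were not paired with gene names here. Genes are therefore described by how they behaved in the libraries of the other 4 groups, and markers of satellite cells, myotubes or other cell types were not analysed here.

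The change of basal medium moved 6816 of the 14637 genes tested, which is 46.6% of them (edgeR quasi-likelihood test, Benjamini-Hochberg adjusted p under 0.05). In DMEM 3536 genes were higher (24.2% of those tested) and 3280 were lower (22.4%). Most differences were small: the median fold was 1.54 among the higher and 1.54 among the lower genes, and the quartiles of all genes tested were log2 differences of -0.33 and 0.35. At least 2-fold, 938 genes were higher in DMEM (6.41% of those tested) and 908 were lower (6.20%). The numbers became uneven at the extremes. At least 4-fold, 222 genes were higher and 158 lower, at least 8-fold 75 and 39, and at least 16-fold 24 and 9. These counts were taken with TMM scaling only, and the genes had low levels. The median level of the genes at least 4-fold higher was 2.78 CPM (read counts scaled to the depth of the library) in DMEM and 0.386 in SFDM. That of the genes at least 4-fold lower was 0.414 CPM in DMEM and 2.30 in SFDM. The balance of higher and lower genes depended on how library sizes were scaled. The higher genes made up 51.9% of the calls with TMM scaling, 45.9% when RLE was used, 45.8% in DESeq2 and 60.3% when only the totals were used. The counts at 2-fold depended on it as well, with 865 higher and 978 lower under RLE, 857 and 984 in DESeq2, and 1065 and 796 under totals. They also turned with the level of the genes. Where genes needed 5 CPM in 3 libraries, 579 were at least 2-fold higher and 608 lower.

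Library by library, the 3 DMEM values lay above all 3 SFDM values for 3922 genes (26.8% of those tested) and below them for 3696 (25.3%). Of the genes called, 3391 higher and 3144 lower ones had no overlap between the groups, and 281 overlapped. Genes with a mean of 10 to 100 CPM over all 18 libraries were called in 50.5% of cases. Those over 100 CPM were called in 58.5% of cases and those under 1 CPM in 25.7%. As whole profiles the groups were apart: a DMEM and an SFDM library differed by 0.728 to 0.842 root mean square log2 units, and 2 replicates of a group by 0.323 to 0.469. The 6 libraries held 16162525 to 28069386 counts, with SFDM replicate A the lowest. Leaving out any one of them, or replicate C of both groups, left 5880 to 6590 genes called.

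**Figure D1:**
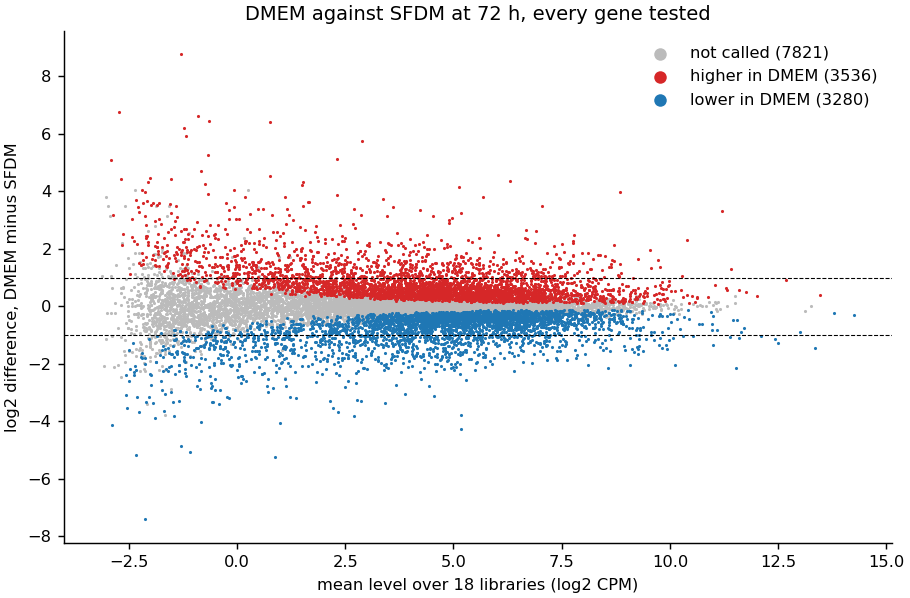
Each point is one of 14637 genes, with its mean level over the 18 libraries in log2 CPM on the x axis and its log2 difference, DMEM minus SFDM, on the y axis. Red points are the 3536 genes called higher in DMEM, blue points the 3280 called lower and grey points the rest, with dashed lines at a 2-fold difference.

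The following 4 identifiers show the size that single differences reached. They are the 2 highest and the 2 lowest by log2 difference among 5441 identifiers that were called, did not overlap between the groups and reached a mean of 5 CPM or more in one of them. ENSBTAG00000052665 stood at 0.322, 0.483 and 0.771 CPM in SFDM replicates A, B and C and at 26.4, 28.4 and 32.4 CPM in DMEM. Every DMEM library was far above every SFDM library. The log2 difference was 5.74 ± 0.23 (SE, n = 3 and 3, edgeR adjusted p = 6.1e-12), and the means differed 55.3-fold. Among the reference groups the serum-free ones were low, SFGM at 0.785 ± 0.0352 CPM and SFB at 0.439 ± 0.218, and the groups with serum were higher, GM at 5.93 ± 0.293 and DM at 7.67 ± 1.38 (SD, n = 3). The level in DMEM was above all of these.

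ENSBTAG00000018069 stood at 0.451, 0.743 and 0.626 CPM in SFDM and at 20.6, 22.5 and 23.8 CPM in DMEM, again with no overlap. The log2 difference was 5.14 ± 0.17 (SE, edgeR adjusted p = 4.38e-13), a 36.8-fold difference of the means. None of the 4 reference groups had a mean above 2.96 ± 0.267 CPM (GM, SD, n = 3), and SFB, at 0.601 ± 0.166 CPM, was at the level of SFDM.

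The falls had another pattern. ENSBTAG00000009703 stood at 107.6, 102.8 and 95.2 CPM in SFDM and at 5.77, 5.55 and 4.58 CPM in DMEM, a log2 difference of -4.26 ± 0.13 (SE, edgeR adjusted p = 3.21e-13) and a 19.2-fold difference of the means. Its level in SFB was also high, at 64.1 ± 9.97 CPM, above DM with 27.7 ± 2.58 and SFGM with 10.6 ± 0.326 (SD, n = 3). DMEM was the lowest of the 6 groups. ENSBTAG00000052078 was at 6.58, 8.32 and 8.82 CPM in SFDM and at 0.285, 0.157 and 0.167 CPM in DMEM, where the 3 libraries held 8, 4 and 4 counts. The log2 difference was -5.23 ± 0.36 (SE, edgeR adjusted p = 4.1e-09). It was present in SFB at 2.49 ± 0.199 CPM and below 0.3 CPM on average in GM, SFGM and DM. Both identifiers were highest in SFDM, with SFB next.

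**Figure D2:**
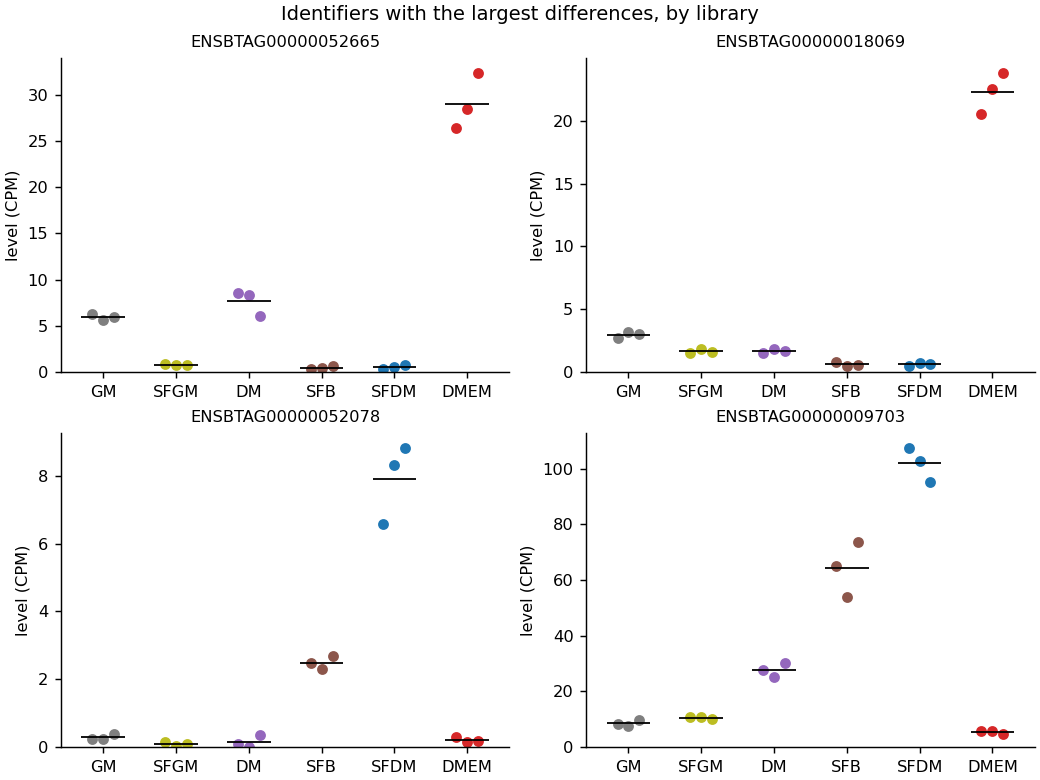
Level in CPM of the 4 identifiers in each of the 18 libraries, with 1 point per library and a line at the mean of each group of 3. The identifiers higher in DMEM reached means of 29.1 and 22.3 CPM there, above every other group, and those lower in DMEM were highest in SFDM, with SFB next.

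Few genes were present on one base and missing on the other. With limits of a mean below 1 CPM in one group and at least 10 CPM in the other, 3 identifiers were present in DMEM only and 0 in SFDM only. ENSBTAG00000052665 and ENSBTAG00000018069 are 2 of the 3, and the third stood at 0.834 CPM on average in SFDM, 15.5 in DMEM and at most 0.305 in the reference groups. With at least 5 CPM as the upper limit, set after the data were seen, 10 identifiers were present in DMEM only and 1 in SFDM only. With every library below 0.5 CPM in one group and at 5 CPM or more in the other, the counts turned to 0 in DMEM only and 1 in SFDM only, which was ENSBTAG00000052078. These counts use the levels that were compared and have no test.

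The larger differences were not mirror images when set against SFB, whose libraries were not part of the comparison. Among the 938 genes at least 2-fold higher in DMEM, the SFB level was nearer to SFDM than to DMEM for 713 (76.0%). It lay between the 2 groups for 680, above both for 33 and below both for 225. For the 908 genes at least 2-fold lower in DMEM the SFB level was nearer to SFDM for 479 (52.8%) and nearer to DMEM for 429. It lay between the 2 groups for 405, above both for 270 and below both for 233. The nearer group was therefore often not at a similar level. The median level of the higher genes was 8.94 CPM in DMEM, 2.81 in SFDM and 3.52 in SFB. That of the lower genes was 3.31 CPM in DMEM, 10.3 in SFDM and 6.95 in SFB. Set against the starting medium, the higher genes had a median log2 change of 1.07 in DMEM and -0.40 in SFDM, and the lower genes one of -0.05 in DMEM and 1.42 in SFDM. These last comparisons share the SFGM libraries and the libraries that chose the genes, and they are given as descriptions.

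Over all genes tested, DMEM libraries lay farther from SFB than SFDM libraries did. Their root mean square log2 distances to the SFB mean were 0.755, 0.715 and 0.708 for DMEM replicates A, B and C and 0.673, 0.624 and 0.601 for SFDM, without overlap (exact two-sided permutation p = 0.1, the smallest that 3 against 3 libraries allow, and 0.2 after adjustment over the 4 distances). Toward the starting medium SFGM the order was the opposite: 1.18, 1.17 and 1.19 for DMEM and 1.23, 1.20 and 1.20 for SFDM (exact permutation p = 0.1, adjusted 0.2). Distances to DM, the serum-based end point, overlapped between the groups, with means of 0.889 ± 0.0189 for DMEM and 0.879 ± 0.0170 for SFDM (SD, n = 3, exact permutation p = 0.6, adjusted 0.8). Distances to GM also overlapped (exact permutation p = 0.8). A p that misses the threshold does not show that the distances are the same. Over the 9269 genes with a mean of at least 10 CPM, the DMEM libraries were farther from DM, at 0.688 to 0.723 against 0.674 to 0.686, without overlap (exact permutation p = 0.1). Over these genes they were nearer to GM, at 1.262 to 1.2731 against 1.2734 to 1.287, again without overlap (exact permutation p = 0.1), whereas the mean distance over all genes was slightly larger for DMEM.

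The genes were then grouped by 2 responses that used no DMEM and no SFDM library. The first is serum-based differentiation, DM against GM, in which 2653 genes rose at least 2-fold (18.1% of those tested) and 2167 fell (14.8%). The second is SFB against SFGM, the response to 72 h in the base medium, in which 1613 rose (11.0%) and 1116 fell (7.62%). A rise or fall, at this and at other limits, also needed an adjusted p under 0.05. A gene counts as without a 2-fold change where it missed either limit, so some such genes had larger differences that were not called. The bins of log2 change described further below use no p limit. Crossing the 2 responses gives 9 classes. The expression filter, the scaling and the estimate of the spread were shared with the comparison of the bases, but the libraries were not.

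Genes that rose in both responses were lower in DMEM more often than higher. Of these 1167 genes 557 were lower and 236 higher, or 47.7% and 20.2%, against 22.4% and 24.2% of all genes tested. At least 2-fold, 302 were lower and 120 higher, against 908 and 938 of all 14637 genes tested. Their median log2 difference was -0.41, with quartiles of -1.03 and 0.29, and the median of all genes tested was 0.01. The class took up 21.0%, 20.8% and 20.8% of the counts in SFDM replicates A, B and C and 12.8%, 12.9% and 13.2% in DMEM. The mean share fell by 7.88 percentage points, and the DMEM share was close to the 12.9% ± 0.942 (SD, n = 3) in SFB. The share was 23.3% ± 0.621 in DM and 3.69% ± 0.0262 in SFGM. The exact two-sided permutation p was 0.1, the smallest possible, and the value adjusted over the 9 classes was also 0.1. Without the 10 most abundant members of the class the difference was -4.08 points. In RNA from whole cultures, fewer differentiated cells and less RNA of these genes per cell cannot be told apart.

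Genes that rose in DM but not in SFB were called at rates nearer to those of all genes. Among 1415 such genes, 403 were higher and 345 lower in DMEM, or 28.5% and 24.4% against 24.2% and 22.4% of all genes tested, with a median log2 difference of 0.01. At least 2-fold, 193 were higher and 131 lower, against 938 and 908 of all 14637 genes tested, so larger differences were more frequent in this class. Their share of the counts was larger in DMEM, at 7.87%, 7.83% and 7.70% against 6.48%, 6.50% and 6.38% in SFDM (exact permutation p = 0.1). The gain was 1.34 points. A single gene supplied 0.467 of them, and without it the gain was 0.878 points. The direction turned where the responses were cut at 4-fold, with 5.22% in DMEM and 5.73% in SFDM, a difference of -0.503 points. That cut also brings genes with a 2-fold to 4-fold rise in SFB into the class. DM had 9.98% ± 0.207 and SFB 5.59% ± 0.0943 (SD, n = 3). The balance of single genes depended on the scaling, with 383 higher and 383 lower after RLE scaling.

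The classes in which the 2 responses disagreed were small. For comparison, 24.2% of all genes tested were higher in DMEM and 22.4% lower. Of 71 genes that rose in DM and fell in SFB, 40 were higher in DMEM and 12 lower, or 56.3% and 16.9% (median log2 difference 0.86), and they took up 0.345% ± 0.0169 of the counts in DMEM and 0.114% ± 0.00360 in SFDM (SD, n = 3). Of 59 genes that fell in DM and rose in SFB, 33 were lower in DMEM and 4 higher, or 55.9% and 6.78% (median -0.74). Genes that fell in SFB without a 2-fold change in DM numbered 383, with 142 higher in DMEM and 50 lower, or 37.1% and 13.1% (median 0.25). Relative to the median of all genes, this class's median of 0.238 became 0.155 without SFDM replicate C and 0.334 without DMEM replicate C. The 387 that rose in SFB without a 2-fold change in DM were divided, with 90 higher and 110 lower, or 23.3% and 28.4%.

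**Figure D3:**
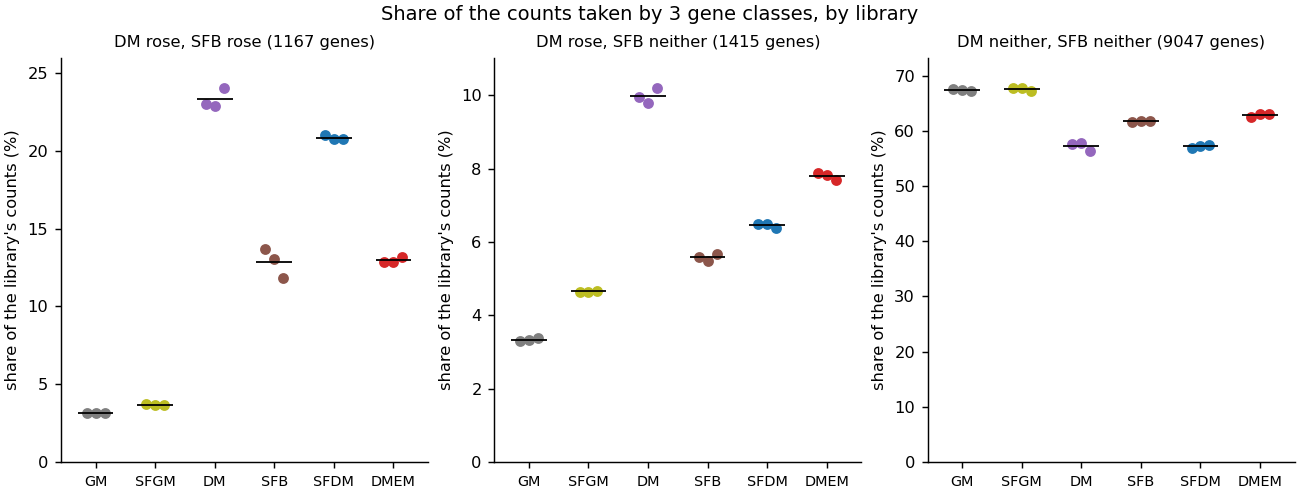
Share of each library's counts, in percent, taken by 3 gene classes, with 1 point per library and a line at the mean of each group of 3. For genes that rose in both DM and SFB, the DMEM libraries, at 12.8% to 13.2%, lay below the SFDM libraries and within the range of SFB, while the other classes took up more of the counts in DMEM than in SFDM.

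The loss of counts was concentrated in fewer genes than the gain, with most of the largest losses among genes that rose in both responses. Summed over genes whose mean share was lower in DMEM, 15.96 percentage points of the library left these genes, and the 10 largest losses made up 4.56 points, or 28.6% of the total. The 50 largest made up 50.8% and the 100 largest 60.0%. Of those 10 genes, 8 had risen in both DM and SFB, and of the 100 largest losses 74 had. That class was 7.97% of the genes tested and held 20.8% of the counts in SFDM on average. The 10 largest gains made up 15.6% of all gains and the 100 largest 39.8%. Of those 100 genes, 53 had no called 2-fold change in either response, a class that was 61.8% of the genes tested. The largest single loss took a gene from 2.20%, 2.12% and 2.06% of the counts in SFDM to 0.842%, 0.808% and 0.817% in DMEM. That gene held 1.17% ± 0.0842 in SFB and 1.76% ± 0.119 in DM (SD, n = 3). The largest single gain was of a gene that had risen in DM but not in SFB. It went from 0.0507%, 0.0483% and 0.0499% in SFDM to 0.4998%, 0.513% and 0.538% in DMEM, 9.93-fold (edgeR adjusted p = 2.17e-16), a share near the 0.587% ± 0.0345 of DM and above the 0.0772% ± 0.00225 of SFB. The 10 most abundant genes of each library together held 10.4% to 11.4% of the counts in DMEM and 12.9% to 13.7% in SFDM.

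Ordered by the size of the serum-based response, both ends were lower in DMEM. Genes with little change in DM against GM had medians close to 0. Genes with a log2 change of 4 or more in DM had a median log2 difference of -0.77 between the bases. Of these 445 genes, 238 were lower in DMEM and 66 higher, or 53.5% and 14.8%, against 22.4% and 24.2% of all genes tested. At the other end, genes with a log2 change below -4 had a median of -0.94, with 59 of 131 lower and 17 higher, and those with a change of -4 to -3 had a median of -1.15, with 139 of 218 lower and 19 higher. The difference between the bases had almost no linear relation with the response in DM (Pearson's r = 0.0043 and Spearman's rho = 0.020 across 14637 genes, which share libraries and are not independent replicates). Against the response in SFB the medians toward the ends had opposite signs. Genes with a change below -4 had a median of 1.03, with 12 of 39 higher and 0 lower. Most of these 39 genes were not called. The 30.8% called higher was near the 24.2% of all genes tested, of which 22.4% were lower. Genes with a change of 3 to 4 had a median of -0.80, with 93 of 173 lower, or 53.8%, and 26 higher. In the end bin, with a change of 4 or more, the median was -0.45. There 51 of 114 were lower and 22 higher, or 44.7% and 19.3%. Across all genes tested Pearson's r with the SFB response was -0.14 and Spearman's rho -0.065.

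**Figure D4:**
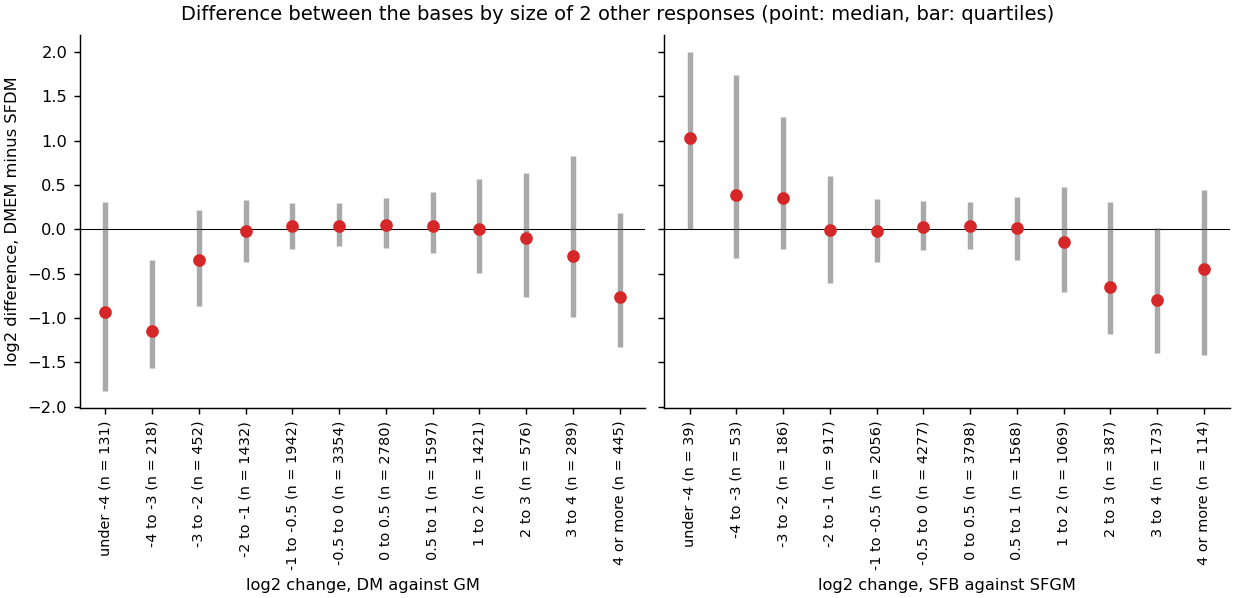
Median (point) and quartiles (bar) of the log2 difference, DMEM minus SFDM, for genes binned by their log2 change in DM against GM (left) or in SFB against SFGM (right), with the number of genes in each bin. On the left both ends lie below 0, at -0.94 and -1.15 for the strongest falls and -0.77 for the strongest rises, and on the right the medians run from 1.03 at the strongest falls to -0.80 and -0.45 at the strongest rises.

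Among the genes that serum-based differentiation turned down most, those that fell at least 8-fold, 198 of 345 were lower in DMEM and 33 higher, or 57.4% and 9.57%, against 22.4% and 24.2% of all genes tested. At least 2-fold, 167 were lower and 24 higher, against 908 and 938 of all 14637 genes tested. Together these genes held 1.14%, 1.14% and 1.20% of the counts in SFDM replicates A, B and C and 0.613%, 0.625% and 0.647% in DMEM. The other groups ordered them as GM with 3.54% ± 0.0133, SFGM with 2.67% ± 0.0324, SFB with 1.74% ± 0.0408 and DM with 0.254% ± 0.00986 (SD, n = 3), so that DMEM lay between SFDM and DM. The median member stood at 16.8 CPM in GM, 4.36 in SFB, 3.33 in SFDM, 1.74 in DMEM and 1.22 in DM. Of the 142 without a called 2-fold change in SFB, 103 were lower in DMEM and 7 higher, or 72.5% and 4.93%. Of the 195 that also fell in SFB, 92 were lower and 25 higher, or 47.2% and 12.8%. Their median log2 difference was -0.92, but the median of their group means was 1.18 CPM in DMEM and 1.04 in SFDM. With no p limit, the 40 genes that fell by more than 3 log2 units in both responses went the other way. Their median log2 difference was 0.84, with 10 higher and 3 lower. The 8-fold limit was set after the pattern was seen, so no test is given for these groups.

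A group of 505 genes had risen 8-fold or more in DM and also 2-fold or more in SFB, of which 306 were lower in DMEM and 77 higher, or 60.6% and 15.2%, against 22.4% and 24.2% of all genes tested. They held 12.5%, 12.2% and 11.98% of the counts in SFDM and 6.56%, 6.47% and 6.60% in DMEM, against 5.84% ± 0.474 in SFB and 14.3% ± 0.678 in DM (SD, n = 3). Here DMEM lay on the far side of SFDM from DM. Another 208 genes had an 8-fold or larger rise in DM and no called 2-fold change in SFB. They were called between the bases at rates near those of all genes, with 61 higher in DMEM and 47 lower, or 29.3% and 22.6%. At least 2-fold, 50 were higher and 35 lower, against 938 and 908 of all 14637 genes tested. Larger differences were thus more frequent among these 208 genes. Their share was 0.944%, 0.967% and 0.978% in DMEM against 0.332%, 0.335% and 0.326% in SFDM, with 1.23% ± 0.0276 in DM. Most of that gain came from the single gene with the largest gain of share: without it the means were 0.446% ± 0.00714 in DMEM, 0.281% ± 0.00510 in SFDM and 0.643% ± 0.0131 in DM (SD, n = 3). The median over members of the group means was 0.688 CPM in DMEM, 0.723 in SFDM and 1.49 in DM. The median log2 difference of the same 208 genes was 0.16, and 0.14 without the gene with the largest gain. The 2 kinds of median thus differed in sign. These levels are low, and whether a typical member was nearer to DM in DMEM was not tested.

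**Figure D5:**
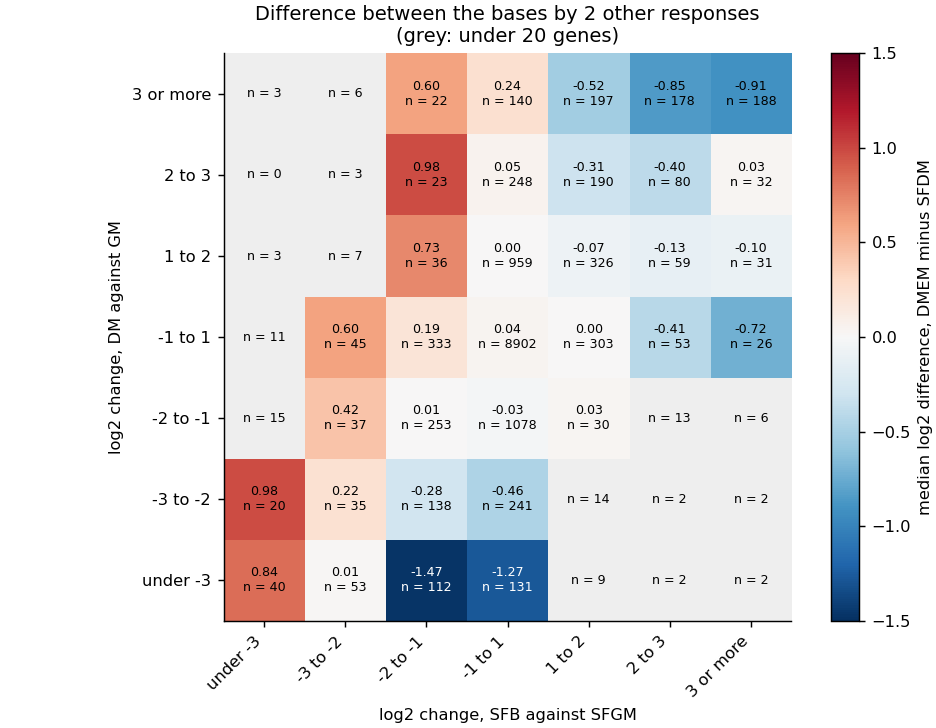
Median log2 difference, DMEM minus SFDM, for genes sorted by their log2 change in DM against GM (rows) and in SFB against SFGM (columns), with the number of genes in each cell and cells under 20 genes left grey. The lowest medians, -1.47 and -1.27, are in genes that fell by 3 or more log2 units in DM and in SFB either fell by 1 to 2 or changed by less than 1, and the genes that rose by 3 or more in both had a median of -0.91. Genes that fell by 3 or more in both went the other way, with a median of 0.84.

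The largest class had no called 2-fold change in either response. It held 9047 genes, of which 2200 were higher in DMEM and 1506 lower, or 24.3% and 16.6%, against 24.2% and 22.4% of all genes tested. The higher genes made up 59.4% of these calls, but 51.1% when RLE was used and 70.3% when only the totals were used. The larger differences in the class were less dependent on scaling, with 345 genes at least 2-fold higher in DMEM and 108 lower, 311 and 127 under RLE, and 405 and 86 under totals. Such genes made up 36.8% of all genes at least 2-fold higher in DMEM and 11.9% of those at least 2-fold lower. Both are below the 61.8% of all genes tested that belong to the class. Under the 2-fold limit the share of the counts went from 56.9%, 57.3% and 57.5% in SFDM to 62.6%, 63.0% and 63.1% in DMEM (exact permutation p = 0.1), where DM had 57.3% ± 0.855 and SFB 61.8% ± 0.0684 (SD, n = 3). With no fold limit on the responses the class gained 0.703 points in place of 5.69.

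Genes that fell in DM without a 2-fold change in SFB numbered 1446, with 478 lower in DMEM and 276 higher, or 33.1% and 19.1%, against 22.4% and 24.2% of all genes tested (median -0.15). The class as a whole took up slightly more of the counts in DMEM, at 11.5%, 11.2% and 11.1% against 10.99%, 10.9% and 10.8% in SFDM (exact permutation p = 0.1), so its summed level and its median gene differed in sign. With a 4-fold limit the share turned, from 2.52% in SFDM to 1.76% in DMEM, and then had the sign of the median. That limit also brings genes with a 2-fold to 4-fold fall in SFB into the class. The 662 that fell in both responses were divided, with 189 lower and 145 higher, or 28.6% and 21.9% (median -0.07). Their share of the counts averaged 1.11% ± 0.0261 across SFDM libraries and 1.22% ± 0.0406 across DMEM libraries (SD, n = 3), but without the 10 most abundant members it was 0.827% and 0.828% (exact permutation p = 1). Genes that already differed between the growth media at 0 h were also called between the bases: of 1077 genes at least 2-fold higher in SFGM than in GM (7.36% of those tested), 393 were higher in DMEM and 295 lower, which is 63.9% called against 46.6% of all genes tested. Of 561 at least 2-fold lower in SFGM (3.83% of those tested) 50.3% were called.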

How the data were processed

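Stranded mRNA libraries of 18 samples were sequenced with 75 bp reads, per the labels' protocols. The authors deposited raw counts, whole numbers of reads per Ensembl bovine identifier, with 1 column per library. STAR 2.7, featureCounts and the bosTau9 assembly are named in the submitters' processing notes. For the annotation release and the strand setting, the sources used here give nothing, so reads of overlapping, antisense or near-identical genes could be split or lost.

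Analysis used R 4.3.3 and edgeR 4.0.16. Genes were kept by filterByExpr (minimum count 10, minimum total 15) and libraries scaled by TMM, which left 14637 genes with at least 99.97% of each library's counts. A quasi-likelihood model with robust estimation of the spread and 1 coefficient for each group used all 18 libraries (12 residual degrees of freedom), and DMEM minus SFDM was tested two-sided with Benjamini-Hochberg adjustment at 0.05. The SE of a log2 difference was derived from the F statistic. Distances used log2 CPM with a prior count of 2. Shares are percentages of all counts of a library. Library totals were 16162525 to 28589018. No replicate pair of DMEM or SFDM agreed within sampling noise (chi-square of 3.73 to 41.9 per degree of freedom), so all were counted separately. The fit was tested on simulated data.

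The comparison, the gene classes and the limits were chosen with earlier results of these data known. Named identifiers are the 2 highest and 2 lowest log2 differences among genes with adjusted p under 0.05, non-overlapping groups and a group mean of 5 CPM or more. The reference table of names matched 0 identifiers, so the planned gene lists, cell type markers and sequences were not analysed here. Alternatives were other scalings, filters, class limits and samples, DESeq2 1.42.0, and a replicate block.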

Additional observations from a re-analysis of the deposited data

How the results depend on the processing

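The count of 6816 genes called ranged from 5880 to 8735 over the alternative settings, 5880 being the count without replicate C of both groups, and stayed within 1.5 times in each. Each of the 4 named identifiers kept its direction and its call in every setting tried. Among the counts of genes called, that of genes at least 2-fold higher in DMEM moved by more, from 938 to 579 when genes needed 5 CPM in 3 libraries. The count at least 2-fold lower went from 908 to 608 there, just within 1.5 times, so the balance turned. Fewer genes were tested with that filter (11409). With the replicate letter as a block 6628 genes were called. In the 6 DMEM and SFDM libraries alone, 8735 were called with the block and 5924 without it. The letters were not taken as pairs, because the labels do not say that they pair cultures. Deviations of same-lettered DMEM and SFDM libraries correlated at 0.280, 0.0265 and 0.413 for A, B and C. SFDM replicates A and C correlated best with the DMEM library of the same letter, and SFDM replicate B with DMEM replicate A. DMEM A with SFDM C gave -0.417 and DMEM C with SFDM A -0.269. These values do not settle whether the letters mark pairs. Thinning to the smallest library, omitting robust estimation, leaving out replicate C of both groups, leaving out the most abundant members or the gene with the largest gain, and a limit of 5 CPM for genes present on one base were added after the data were seen.

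Class medians are given here minus the median of all genes tested, which removes most of the effect of scaling. For genes that rose in DM and SFB, -0.42 became -0.40 without an expression filter, -0.52 with the stricter one, -0.44 with only the compared groups, with or without the block, and -0.44 after thinning, with a range of -0.44 to -0.42 when libraries were left out. For those that rose in DM and fell in SFB, 0.85 became 1.17 with the stricter filter and 0.98 after thinning, and ranged from 0.81 to 0.99. For those that fell in DM without a change in SFB, -0.16 became -0.14 without a filter, -0.13 with the stricter one and -0.14 with the block and only the compared groups, and ranged from -0.16 to -0.13. For genes outside both responses, 0.0301 became 0.0480 without a filter and ranged from 0.0311 to 0.0416 when libraries were left out. The class limits moved the values most, and they also changed which genes each class held. Without a fold limit the medians were -0.11 (rose in both), 0.31 (rose in DM, fell in SFB), 0.10 (SFB fell only) and -0.0116 (DM fell only), and with a 4-fold limit -0.77, 1.04, 0.56 and -0.73, with -0.17 for genes that rose in DM only. The share lost by genes that rose in both, -7.88 points, was -7.18 without a fold limit, -6.02 at 4-fold and -4.08 without the 10 most abundant members. For genes that rose in DM only, the gain of 1.34 points became 0.806, -0.503 and 0.732, and 0.878 without the gene with the largest gain. Its direction thus turned at the 4-fold limit. At that limit the class also takes in genes with a 2-fold to 4-fold rise in SFB, so its members differ in kind. The cause of the turn was not tested. Outside both, 5.69 points became 0.703, 7.29 and 5.20. For genes with a mean of at least 10 CPM, DMEM minus SFDM distances were -0.00978 to GM (0.00391 over all genes) and -0.0473 to SFGM (-0.0263). With limits of 0.5 and 5 CPM in every library, 0 identifiers were present in DMEM only and 1 in SFDM only, and with means below 1 and at least 5 CPM, 10 and 1. Other settings for gene lists were not run, since no identifier had a name.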
